A study of Mus musculus with 6 samples.

Results

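Mouse genes whose symbol is Zfp followed by a number encode zinc finger proteins, and their RNA was read on 6 arrays of regulatory T cells (Tregs) from tumour-bearing colon. The arrays measured 19494 named genes, of which 330 carried such a symbol. The 151 genes described here were chosen by their measured mean level, which had to be 7 or more in deposited log2 units over all 6 arrays. A gene with several array rows was represented by the row with the highest mean. At the edge of that rule, Zfp959, Zfp831 and Zfp777 were just inside with means of 7.001, 7.002 and 7.003. Zfp410, Zfp58 and Zfp541 were just outside with means of 6.997, 6.996 and 6.993. Of the 151 members, 131 averaged 7 or more in both fractions of cells, while 12 did so in GPR15+ cells alone and 8 in GPR15- cells alone. The members that reached 7 in 1 fraction alone had to differ in that direction, so nothing is read from their sign.

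The study induced colorectal cancer with a carcinogen, azoxymethane (AOM), followed by dextran sulfate sodium (DSS), an agent that injures the gut lining, in mice of the genotype Foxp3-RFP x GPR15-GFP. CD4-stained Tregs, recognised by the red reporter, were sorted from the lamina propria of the tumorous colon by the green reporter of GPR15, which is known as a homing receptor of T cells for the large intestine. The 2 groups were GPR15-GFP+ and GPR15-GFP- Tregs, with 3 samples each, titled 1, 5 and 6 in both. All 6 samples shared the genotype, the tumour protocol and the tissue. The labels do not say whether a sample held 1 animal or a pool, so the p-values cover the spread among these 6 samples and no more, and that spread may be technical.

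Most proteins named Zfp bind DNA through repeated fingers in which cysteine and histidine residues hold a zinc ion, and each finger reads a few bases. In mammals many of them also carry a KRAB domain, which recruits Trim28 (KAP1) and, through it, the histone methyltransferase Setdb1, so that retrotransposons and some genes are packed into heterochromatin. These genes multiplied by tandem duplication and stand in clusters of close relatives, and related copies can share array probe sequence, so values of such copies are uncertain. The name is not bound to 1 function: some members bind RNA, help build ribosomes or act at the mitotic spindle.

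The array medians lay between 6.49 and 6.64 log2 units over all rows, and the levels of the 2 arrays numbered 1 were spread less widely (SD 1.63) than those of the other 4 (SD 1.74 to 1.87). The T cell markers that were measured, 6 of 8, averaged 9.37 to 11.7, and of the 5 Treg markers Ctla4, Ikzf2, Tnfrsf18 and Icos averaged 11.2, 9.67, 11.4 and 11.9, while Il2ra averaged 5.17. None of the 4 measured macrophage markers reached 7. Their mean level was 6.19, 6.20 and 6.22 in the GPR15- samples 1, 5 and 6 and 6.21, 5.71 and 5.58 in the GPR15+ samples, and all 4 were below 0 in the difference. Epithelial markers, of which 2 of 6 reached 7, averaged 6.60, 6.64 and 6.67 against 6.66, 6.18 and 6.28. The 4 measured B and plasma cell markers, none at 7, averaged 6.17, 6.16 and 5.54 against 5.45, 5.69 and 5.27, with a median difference of -0.48. No array value is a true zero, and the part of these other cells in the results was not tested. Gpr15 itself read 8.51, 9.12 and 8.70 in the samples labelled GPR15- and 8.23, 7.86 and 8.28 in those labelled GPR15+, a difference of -0.65 ± 0.22 (SE, limma adjusted p = 0.773). The RNA of the sorted gene therefore went against the labels, and every direction below, GPR15+ minus GPR15-, rests on the labels alone.

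Zfp genes leaned towards higher levels in the samples labelled GPR15+, by a small amount and with no member past the test. The median difference of the 151 members was 0.085 log2 units, with quartiles of -0.12 and 0.35 and a range from -0.59 to 1.12. It was 0.03 after quantile normalization of the deposited values and 0.15 after centring of each array. Of the members, 96 (63.6%) were above 0, against 40.8% of all genes and 51.6% of all genes spread over the same levels. Among the 131 members that averaged 7 or more in both fractions, 84 (64.1%) were above 0 and the median was 0.08. The median level of the members was 7.68, 7.66 and 7.65 in the GPR15- samples and 7.71, 7.96 and 7.87 in the GPR15+ samples, so that the shift was seen in the GPR15+ samples 5 and 6 and hardly in sample 1. In a bulk sample, fewer cells of a type and less RNA per cell cannot be told apart.

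Single differences were modest. The difference was under 0.25 log2 units either way in 80 members, 0.5 or more higher in 23 and 0.5 or more lower in 1. The 23 include members that reached 7 in GPR15+ cells alone, so the choice of members fixed part of this imbalance. The median of those 12 was 0.62. A difference of 1 log2 unit, a doubling, was reached in 2 members (1.32%), beside 0.57% of all genes and 0.71% of all genes at 7 or more. They were Zfp52 and Zfp959, and Zfp959 reached 7 in GPR15+ cells alone. By limma with Benjamini-Hochberg adjustment over all 19494 genes, 0 members had an adjusted p under 0.05, and their lowest was 0.773 (0 percent of all genes passed). Without adjustment, 12 members (7.95%) were higher at p under 0.05, beside 2.79% of all genes, and 2 (1.32%) were lower, beside 3.44% of all genes. At the levels of the members, where brighter genes as a whole leaned higher, the corresponding shares of all genes were 4.89% and 2.34%. Of the 12, 3 had reached 7 in GPR15+ cells alone, which leaves 9 higher and 2 lower among the 131 members at 7 or more in both fractions. With the title number as a block, adjustment again left 0 members (lowest adjusted p by limma 0.200) and 0 percent of all genes. The unadjusted counts under the block were 30 higher (19.9%) and 6 lower (3.97%), beside 6.14% and 6.23% of all genes, and 10.8% and 4.76% at the members' levels. Among the 131 members at 7 or more in both fractions, the counts under the block were 21 and 5. Leaving out GPR15+ sample 1 gave 31 higher and 12 lower without adjustment, while leaving out any other sample gave 7 to 9 higher and 0 or 1 lower. The rise was not particular to the members. Over all 19494 genes the counts went from 544 higher and 670 lower to 1860 and 2491 without GPR15+ sample 1. Without any other sample they were 354 to 414 higher and 311 to 413 lower. Weights per array changed the adjusted count: 22 members (14.6%; 19 higher and 3 lower) then passed with limma, beside 11.2% of all genes. That weighting did not reach its numerical tolerance, and a second way of estimating the weights left 0 members and 2 genes.

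With 3 arrays against 3, the levels of 11 members (7.29%) in GPR15+ samples all lay above those in GPR15- samples, beside 4.12% of all genes and 6.36% at equal levels. The reverse held for 8 members (5.30%), beside 9.17% of all genes and 6.91% at equal levels. Both shares were near those of genes at equal levels, and among the 131 members at 7 or more in both fractions the counts were 8 and 8. After centring of each array the counts over all members were 23 and 4, and with the trend over intensity removed, 19 and 5. These rescalings moved all genes: at an unadjusted limma p under 0.05, 544 higher and 670 lower became 777 and 397, and 728 and 410. The share of all genes without overlap is not given for the rescaled values, so the rescaled counts are not read as a result about the members. For 1 gene, the smallest p that an exact permutation of these samples can give is 0.1.

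**Figure D1:**
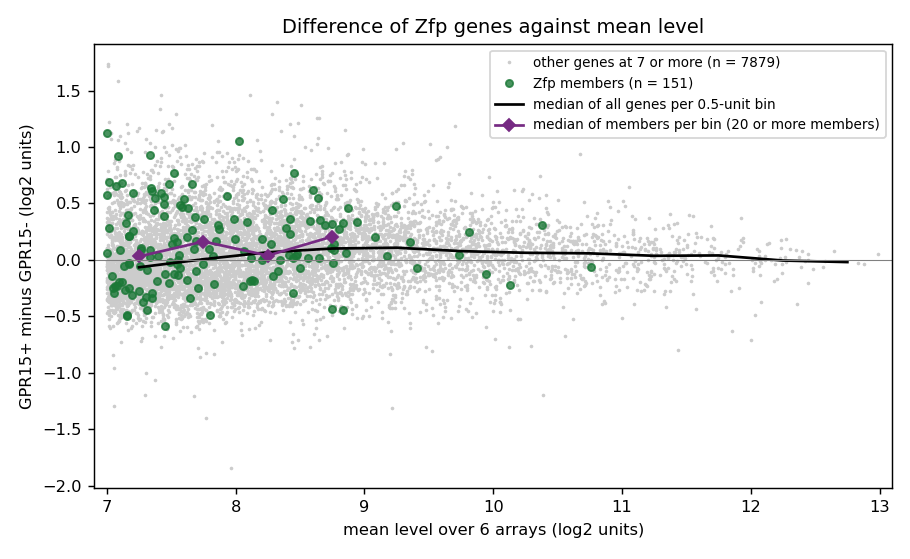
The horizontal axis is the mean level over the 6 arrays and the vertical axis the difference, GPR15+ minus GPR15-, both in log2 units; green points are the 151 Zfp members, grey points the 7879 other genes at 7 or more. The black line is the median of all genes per 0.5-unit bin, which runs from -0.07 to 0.11 up to a level of 9.5, and the purple diamonds are the members' medians where a bin held 20 or more of them.

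Compared with genes of equal mean level, the members were slightly higher. Subtracting the median of all genes in the same 0.5-unit bin left a median of 0.08 log2 units, and 87 of 151 members lay above their bin's median. In the bin from 7 to 7.5, the 58 members had a median of 0.03 against -0.07 for all genes. From 7.5 to 8, the 36 members had 0.16 against 0.01. From 8 to 8.5, the order turned, with 0.04 for 26 members and 0.07 for all genes. From 8.5 to 9, the 20 members had 0.21 against 0.10. The members were thus above all genes in 3 of these 4 bins, and no test of the offset was made.

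By title number, the median member difference was 0.03 in pair 1, 0.15 in pair 5 and 0.15 in pair 6. The members above 0 numbered 81, 93 and 97 in those pairs. Genes at 7 or more as a whole had medians of -0.02, 0.09 and 0.05, and after subtraction of the bin medians the members' values were 0.05, 0.08 and 0.13. The members thus lay a little above their peers in each pair. In 46 members (30.5%) the difference was above 0 in all 3 pairs, beside 13.4% of all genes and 20.3% at equal levels. In 24 members (15.9%) it was below 0 in all 3, beside 23.6% of all genes and 18.4% at equal levels. Among the 131 members at 7 or more in both fractions, these counts were 35 and 18.

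Pairs 5 and 6 gave similar orders of members and pair 1 did not. Over the 151 members, the differences of pairs 5 and 6 correlated at 0.49 (Pearson, across genes, which are not independent), with equal sign in 113 members. Pair 1 correlated at 0.21 with pair 5 and at 0.08 with pair 6, with equal sign in 89 members each time. Over all genes at 7 or more the values were 0.58 between pairs 5 and 6, 0.08 between 1 and 5, and 0.06 between 1 and 6. No 2 pairs shared an array.

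**Figure D2:**
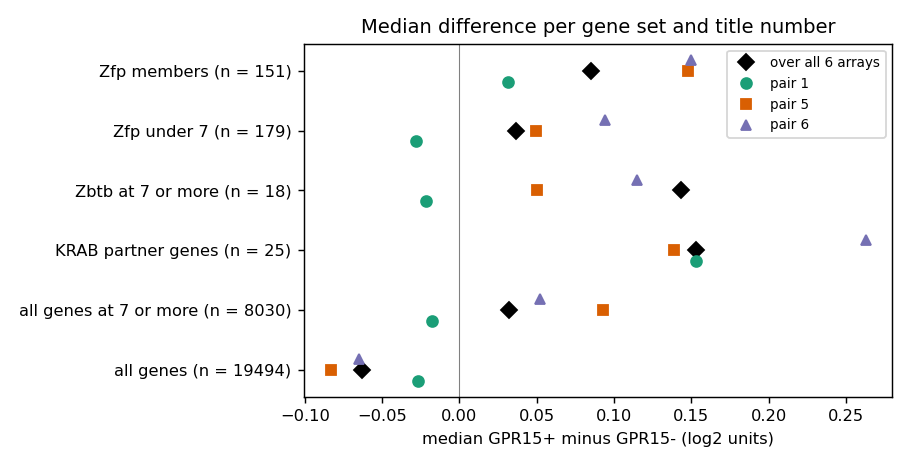
Each line is a gene set with its number of genes, and the horizontal axis is the median difference, GPR15+ minus GPR15-, in log2 units; diamonds are over all 6 arrays and the other marks are the pairs of equal title number. The Zfp members lie above 0 in every pair, at 0.03, 0.15 and 0.15, while all genes, most of them dimmer, lie below 0. All genes at 7 or more, nearer the members in level, lie at -0.02, 0.09 and 0.05.

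Zfp52 gave the clearest separation among the members that were higher. It read 7.39, 7.57 and 7.53 in the GPR15- samples 1, 5 and 6 and 8.27, 9.002 and 8.39 in the GPR15+ samples. Its lowest GPR15+ sample was above its highest GPR15- sample, and the difference was 1.06 ± 0.22 (SE), a 2.08-fold difference with a limma adjusted p of 0.773 and 0.200 under the block. Zfp677, in the same chromosomal cluster, read 6.43, 6.74 and 6.71 against 7.48, 8.08 and 7.07. Its groups did not overlap either, at a difference of 0.92 ± 0.27, but it reached 7 only in the GPR15+ cells. Zfp959 had the widest difference of any member, 1.12 ± 0.39, from 6.08, 6.49 and 6.75 to 6.63, 7.94 and 8.12. Its groups overlapped, because GPR15+ sample 1 was below GPR15- sample 6, and it too passed the level of 7 only through the GPR15+ samples.

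Zfp276 read 6.42, 7.20 and 6.61 in the GPR15- samples and 7.22, 7.62 and 7.36 in the GPR15+ samples, so that the groups were parted by a narrow gap; it reached 7 only through the GPR15+ samples. Zfp251 read 7.41, 7.17 and 7.40 against 7.74, 7.62 and 8.24. Zfp451, known as a SUMO ligase, read 7.86, 7.996 and 8.44 against 8.53, 8.59 and 8.79. The differences of these 3 were 0.66 ± 0.24, 0.54 ± 0.21 and 0.54 ± 0.20, each above 0 in every pair. Zfp931, Zfp944, Zfp512, Zfp329 and Zfp148 were likewise without overlap, at differences of 0.36 to 0.45, and of these Zfp944 reached 7 in GPR15+ cells alone. For Zfp512 the pairs were unequal, at 1.04, 0.13 and 0.01, so that its separation came mostly from pair 1.

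In the other direction 8 members stood apart, at differences from -0.49 to -0.17. Zfp444 read 8.09, 7.87 and 8.17 in the GPR15- samples and 7.68, 7.45 and 7.54 in the GPR15+ samples. All 3 GPR15+ samples were below all 3 GPR15- samples, and the difference was -0.49 ± 0.17 (limma adjusted p = 0.773). Zfp629 read 9.02, 8.83 and 9.06 against 8.78, 8.36 and 8.46, a difference of -0.43 ± 0.18, also without overlap. These were the 2 lower members at an unadjusted p under 0.05. Zfp114, Zfp109, Zfp113, Zfp516, Zfp108 and Zfp961 were without overlap at differences between -0.33 and -0.17. Zfp160 had the most negative difference of all members, -0.59 ± 0.30, but overlapped: it read 8.38, 7.46 and 7.40 against 7.54, 6.98 and 6.96. Its GPR15+ sample 1 was above GPR15- samples 5 and 6, although every pair was below 0. Zfp658 overlapped as well, at -0.44 ± 0.21.

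**Figure D3:**
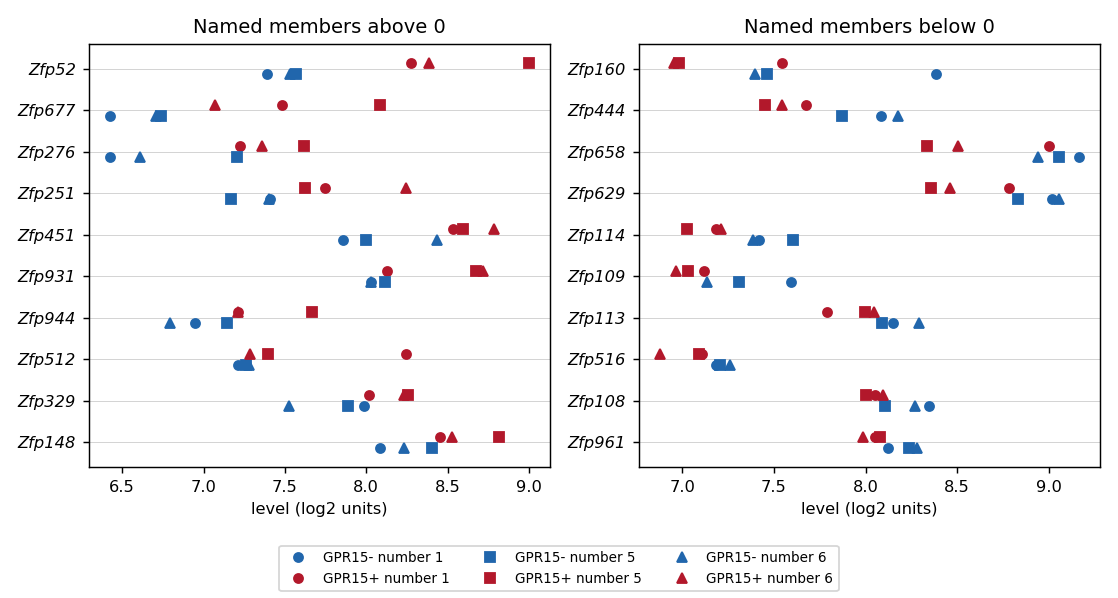
The horizontal axes give the level in log2 units and each line is 1 member; blue marks are the 3 GPR15- arrays, red marks the 3 GPR15+ arrays, and the mark's shape is the title number. Zfp52 shows the widest gap between the groups, from 7.57 to 8.27, whereas Zfp160 and Zfp658 are the 2 members shown whose groups overlap.

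Among the members with a known molecular role, 21 of 34 listed genes reached 7, and the 15 of them with the highest means are described. None passed the limma test after adjustment (0 percent of all genes did). DNA-binding transcription factors differed from each other. Zfp281, which binds GC-rich promoters, read 8.40, 9.22 and 9.40 in the GPR15- samples and 8.72, 9.80 and 9.92 in the GPR15+ samples. Each of its pairs was higher, at 0.32, 0.58 and 0.52, yet the numbers 5 and 6 stood above number 1 by more than the fractions differed. Zfp148, a related GC-rich-binding factor, read 8.08, 8.41 and 8.23 against 8.45, 8.81 and 8.53, without overlap. Zfp335, which is needed for T cell maturation in the thymus, differed by 0.23 ± 0.22, with pairs of 0.82, -0.07 and -0.08, so only pair 1 was higher. Zfp263, which carries a SCAN domain, differed by 0.02 ± 0.17, and its sign turned under several other settings.

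Of the members that act in chromatin silencing, Zfp809, a KRAB protein that silences endogenous retroviruses through Trim28, read 7.72, 8.93 and 8.45 in the GPR15- samples and 8.47, 8.999 and 9.26 in the GPR15+ samples. Its groups overlapped, at a difference of 0.54 ± 0.34. Zfp638, which brings the HUSH silencing complex to DNA, differed by -0.02 ± 0.22, and Zfp644, a partner of the G9a and GLP methyltransferases, by 0.04 ± 0.18. Neither had a stable sign across the other settings.

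The members that act on RNA or ribosomes did not separate the fractions. Zfp346, which binds double-stranded RNA, differed by 0.28 ± 0.32, and Zfp106, an RNA-binding protein, by -0.10 ± 0.24. Zfp622, a maturation factor of the large ribosomal subunit, differed by 0.19 ± 0.29, and Zfp593, a ribosome biogenesis factor, by 0.31 ± 0.27. The nucleolar protein Zfp330 was higher in every pair, at 0.15, 0.37 and 0.39. Zfp207, a Bub3-binding protein of the mitotic spindle, was also higher in every pair, at 0.42, 0.23 and 0.28, but its groups overlapped widely. Zfp706 differed by 0.06 ± 0.31 and Zfp292 by 0.18 ± 0.38.

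Several members followed the title number more than the fraction. Zfp207 read 9.40 and 9.83 in the 2 samples numbered 1, but 10.5 to 10.9 in the other 4. Zfp51 likewise read 6.56 and 6.88 in the samples numbered 1 and 7.73 to 8.40 in the others. Zfp715 read 6.35 and 6.61 there and 6.93 to 7.95 elsewhere. Zfp825 differed within a fraction: it read 8.06, 8.32 and 8.23 in the GPR15- samples and 6.67, 9.10 and 8.85 in the GPR15+ samples, which put its mean difference at 0.00 ± 0.57. Zfp369 read 6.42, 6.45 and 7.75 against 6.97, 8.37 and 8.06. Over all members, the median SD between numbers was 0.20 and the median size of the difference between fractions 0.23. Number 1 had the lowest mean in 64 members and the highest in 58, whereas among all genes at 7 or more it was the lowest in 53.5% and the highest in 33.7%.

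The 5 members with the highest signal were Zfp62, Zfp207, Zfp524, Zfp142 and Zfp992, with means from 9.81 to 10.8. Signal depends on the probes, so this order is not one of RNA abundance. Zfp62 was steady, between 10.65 and 10.95 on every array. Zfp992 was lower in pair 1 by 0.51 and higher in pairs 5 and 6 by 0.61 and 0.64, and Zfp524 went the other way, with 0.10, -0.41 and -0.35.

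The position of a member on its chromosome, which the choice of members did not use, grouped some of these differences. Zfp genes were joined into a run where no more than 5 other protein-coding genes stood between them in the reference gene table. All 151 members were placed, 74 of them in 25 runs with 2 or more members and 77 alone. Members in runs had a median difference of 0.08 and those alone 0.10. Neighbouring members within a run had differences of equal sign in 31 of 47 pairs of neighbours (66.0%), and neighbouring genes at 7 or more in 53.8% of 7355 pairs. These shares are a description, because neighbouring copies can share probe sequence.

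The 4 runs described next were picked after their values were seen. The run from Zfp160 to Zfp213 held 12 members of 23 Zfp genes, with a median difference of 0.23, and 10 of the 12 were above 0. It contains Zfp52 and Zfp677, and also Zfp160, the most negative member. Of the 12, Zfp677 and Zfp944 reached 7 in GPR15+ cells alone and Zfp213 in GPR15- cells alone. The choice of members fixed their signs, which also count in the 10 of 12 and in the median. The median of the run was 0.22, 0.30 and 0.22 in pairs 1, 5 and 6, a level that was alike in all pairs, and 0.14 without GPR15- sample 1. The run from Zfp953 to Zfp748 held 4 members of 16 Zfp genes, all 4 above 0, at a median of 0.41. There the pairs were far apart, at -0.03, 1.05 and 0.27, so that the higher level came mainly from pair 5. Zfp748, for example, read 7.81, 7.10 and 7.07 against 8.02, 8.37 and 7.59.

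The run from Zfp180 to Zfp94 went the other way. It held 6 members of 10 Zfp genes at a median of -0.25, and 5 of the 6 were below 0, with 3 of them (Zfp114, Zfp109 and Zfp108) without overlap. Zfp109 read 7.59, 7.31 and 7.14 in the GPR15- samples and 7.12, 7.03 and 6.97 in the GPR15+ samples. Zfp108 read 8.35, 8.10 and 8.27 against 8.05, 8.004 and 8.09. Pairs 1, 5 and 6 had medians of -0.27, -0.22 and -0.13 over this run, below 0 each time, and Zfp94 alone was at 0.03. The median of the run was -0.16 without GPR15- sample 1 and -0.15 under the array weights. A further run, from Zfp84 to Zfp146, held 5 members at a median of -0.20, but its pairs were at -0.08, -0.27 and 0.28 and its median was 0.11 under the array weights.

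**Figure D4:**
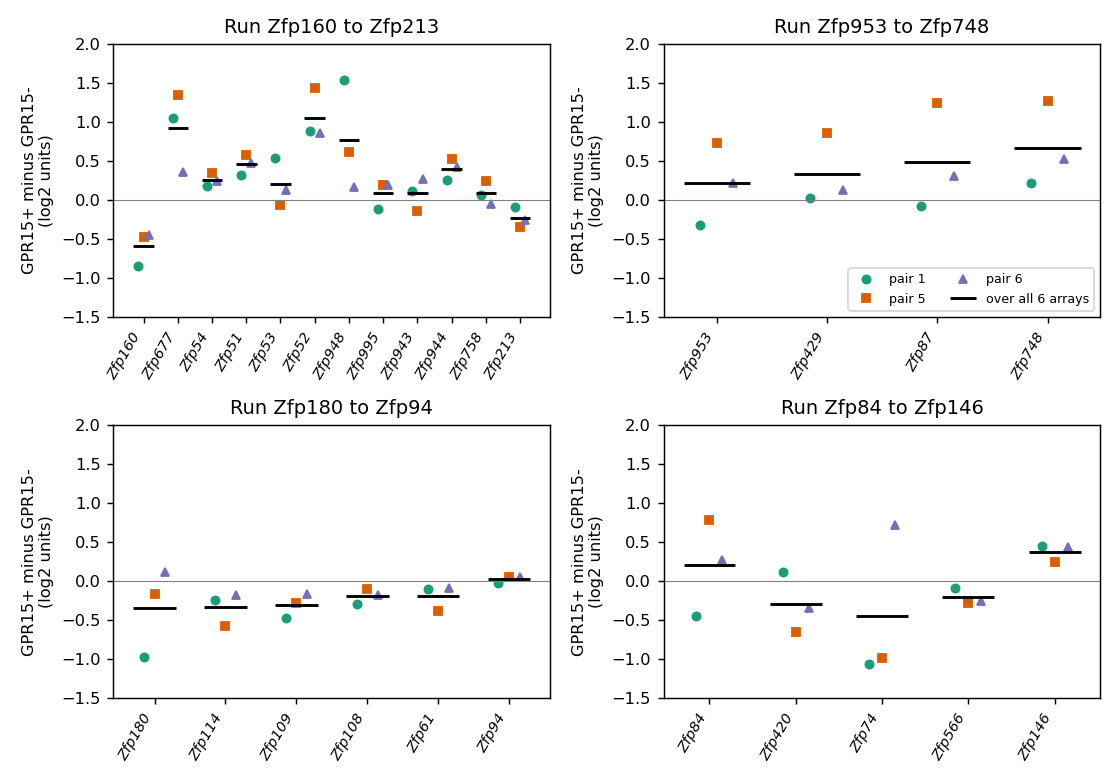
Each panel is a run of neighbouring Zfp members in chromosomal order, and the vertical axis is the difference, GPR15+ minus GPR15-, in log2 units; marks are the pairs of equal title number and bars the difference over all 6 arrays. In the run from Zfp160 to Zfp213, 10 of 12 bars lie above 0, and in the run from Zfp180 to Zfp94, 5 of 6 lie below.

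The sequence just before the start of these genes was compared because members of the 2 lower runs shared letters there. RefSeq (GRCm38.p6) gave a sequence for 123 of the 151 members, and the 250 bases before the start were read. A search for letters common to the run from Zfp84 to Zfp146 gave a stretch of 15 that occurred in 4 of its 5 promoters, and 4 of the 5 promoters of the run from Zfp180 to Zfp94 held it with at most 2 changes. The letters that were constant are ACNACANTTCCCAGA, or TCTGGGAANTGTNGT on the other strand, in which N is any base. They resemble letters known from sites of the factor Zfp143 (ZNF143), whose binding was not measured here. The 4 promoters that follow carry them, and the shared letters are in capitals; each is printed 5′ to 3′ on the strand of its gene.
Zfp180, chr7:24081647-24081896, plus strand: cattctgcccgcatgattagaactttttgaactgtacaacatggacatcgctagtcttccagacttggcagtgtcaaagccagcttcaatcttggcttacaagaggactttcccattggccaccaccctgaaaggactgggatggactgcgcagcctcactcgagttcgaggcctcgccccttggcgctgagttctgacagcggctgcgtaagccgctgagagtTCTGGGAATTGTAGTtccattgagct
Zfp109, chr7:24237599-24237848, minus strand: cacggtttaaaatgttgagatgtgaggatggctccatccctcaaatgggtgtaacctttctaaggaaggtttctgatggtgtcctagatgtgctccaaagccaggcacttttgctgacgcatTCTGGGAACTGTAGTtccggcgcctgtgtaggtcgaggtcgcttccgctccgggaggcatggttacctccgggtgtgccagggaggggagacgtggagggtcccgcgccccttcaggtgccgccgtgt
Zfp108, chr7:24254544-24254793, plus strand: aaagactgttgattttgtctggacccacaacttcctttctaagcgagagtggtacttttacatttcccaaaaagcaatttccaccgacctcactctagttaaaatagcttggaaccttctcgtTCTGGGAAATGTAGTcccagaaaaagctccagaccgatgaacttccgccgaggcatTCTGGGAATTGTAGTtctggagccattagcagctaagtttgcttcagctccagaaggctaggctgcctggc
Zfp420, chr7:29859762-29860011, plus strand: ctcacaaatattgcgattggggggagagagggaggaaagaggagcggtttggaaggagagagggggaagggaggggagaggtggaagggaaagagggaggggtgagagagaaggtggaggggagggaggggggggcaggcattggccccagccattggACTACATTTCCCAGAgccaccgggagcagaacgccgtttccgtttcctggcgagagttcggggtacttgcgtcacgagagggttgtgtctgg
The letters begin 26 bases before the start in Zfp180, 128 in Zfp109 and 92 in Zfp420, and Zfp108 holds them at 127 and 71 bases before it. The 4 printed carriers are all below 0, and the carriers Zfp84 (0.21) and Zfp94 (0.03) are not printed. Also shown, picked by their values, are the promoters of the 2 members with the widest separation above 0, both from the run from Zfp160 to Zfp213. They hold no match, as is true of 113 members, and so have no capitals.
Zfp52, chr17:21535289-21535538, plus strand: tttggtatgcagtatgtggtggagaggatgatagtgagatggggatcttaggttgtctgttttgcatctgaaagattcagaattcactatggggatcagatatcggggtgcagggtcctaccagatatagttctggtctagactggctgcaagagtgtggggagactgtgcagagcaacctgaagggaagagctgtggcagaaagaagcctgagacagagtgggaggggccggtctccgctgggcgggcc
Zfp677, chr17:21383498-21383747, plus strand: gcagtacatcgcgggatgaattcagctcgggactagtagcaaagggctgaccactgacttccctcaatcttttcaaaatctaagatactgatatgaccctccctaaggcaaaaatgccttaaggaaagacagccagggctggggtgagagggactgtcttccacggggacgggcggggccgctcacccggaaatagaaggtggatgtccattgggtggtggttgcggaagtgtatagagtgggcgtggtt

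These letters, searched on both strands, were found in 10 of the 123 members with a promoter (8.13%). They were found in 10 of 150 Zfp genes below 7 (6.67%), in 54 of 15410 other measured genes (0.35%) and in 0.33% of all 27025 promoters of that length in the table. Outside the 2 runs that gave the letters, 2 of 113 members held them (1.77%). The 10 members were Zfp84, Zfp94, Zfp454, Zfp128, Zfp108, Zfp566, Zfp420, Zfp109, Zfp180 and Zfp74, whose differences ran from 0.21 for Zfp84 to -0.44 for Zfp74. Their median difference was -0.20, with 2 of 10 above 0, against 0.10 for the 113 members without the letters, of which 76 were above 0. Pairs 1, 5 and 6 gave -0.24, -0.13 and -0.07, and the 2 kinds of array weights -0.06 and -0.10. The 2 members outside the runs, Zfp454 and Zfp128, were at -0.02 and -0.13. The letters came from runs picked for their low values, so the lower median is part of how they were found and is a description only. In the 10 Zfp genes below 7 that hold the letters, the median was -0.20, with 3 above 0. After subtraction of the median of genes of equal level, it was -0.09, with 4 above 0. The same subtraction gave -0.19 for the 10 members with the letters. The 2 runs that gave the letters also hold Zfp genes below 7, as 6 of 10 and 5 of 14 of their Zfp genes are members. How many of the carriers below 7 lie in these runs is not given, so they are not a separate check. In the 36 other genes at 7 or more that hold the letters, the median was 0.16, with 26 above 0 (72.2%), beside 54.3% of the other genes at 7 or more without the letters.

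**Figure D5:**
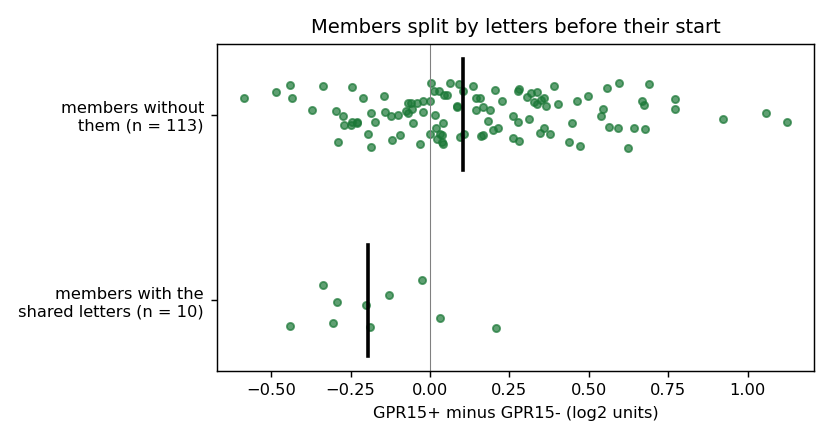
The horizontal axis is the difference, GPR15+ minus GPR15-, in log2 units, each point is 1 member with a promoter sequence, and the black bars are medians; points are spread vertically for sight only. The 10 members with the shared letters have a median of -0.20 and the 113 without them 0.10, and the letters were derived from 2 runs with low values.

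Other short motifs were present in the members' promoters about as often as in genes of like level. The ETS motif (CCGGAAG, both strands) was in 18.7% of members, 15.9% of genes at 7 or more and 7.83% of all promoters. The CCAAT box (CCAAT) was in 44.7%, 39.5% and 37.5%, and the GC box (GGGCGG) in 53.7%, 61.4% and 35.4%. The E-box CACGTG was in 9 of the 78 members above 0 and 0 of the 45 below 0, and in 9.74% of genes at 7 or more. By the same split, the ETS motif was in 17 and 6, the CCAAT box in 34 and 21 and the GC box in 40 and 26. The motifs TGACGTCA (CRE) and TGACTCA (AP-1) were each in 4 and 0, and AAGATGGC (YY1) in 2 and 1. No test was made of these splits. The median number of CpG dinucleotides in the 250 bases was 13 for members, 9 for Zfp genes below 7 and 17 for genes at 7 or more.

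The most similar genes of the study showed offsets of like size. The 179 Zfp genes below 7 had a median difference of 0.04, with 98 above 0, and of 0.14 after subtraction of the median of genes of equal level. The 18 Zbtb genes at 7 or more, which encode zinc finger proteins with a BTB domain, had a median of 0.14, with 13 above 0 and pairs of -0.02, 0.05 and 0.11. No difference between these sets and the 151 members was tested, since genes are not replicates.

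Of the genes that work with KRAB zinc finger proteins, 25 of 30 listed were measured, and their median difference was 0.15, with 16 above 0. None passed the limma test after adjustment over all genes (0 percent of all genes did), while 3 were higher at an unadjusted p under 0.05, beside 2.79% of all genes, and 0 were lower, beside 3.44%. With the title number as a block, 5 were higher, beside 6.14% of all genes, as Trim28 and Morc2a joined Cbx3, Morc3 and Trim33, and 0 were lower, beside 6.23%. Trim33, a relative of Trim28, read 6.75, 7.30 and 7.14 in the GPR15- samples and 7.59, 7.90 and 7.74 in the GPR15+ samples, a difference of 0.68 ± 0.20 without overlap. Morc3, a chromatin ATPase that silences retroviral elements, read 5.53, 5.77 and 5.00 against 6.29, 6.14 and 6.31, at 0.81 ± 0.22. Cbx3, the heterochromatin protein HP1γ, read 6.09, 6.32 and 6.03 against 6.82, 6.74 and 6.53, at 0.55 ± 0.17. These 3 had no overlap between the groups. Cbx1 and Morc2a were also without overlap, at 0.41 and 0.43, and Daxx overlapped at 0.55. The adaptor Trim28 itself read 5.53, 6.19 and 5.91 against 5.80, 7.72 and 6.30, so that its difference of 0.73 ± 0.46 came mainly from GPR15+ sample 5. The methyltransferase Setdb1 went the other way without overlap, from 6.92, 6.98 and 7.11 to 6.49, 6.80 and 6.73, a difference of -0.33 ± 0.17. Hdac1, Pphln1, Smarcad1, Dnmt3a and Hdac2 were below 0 as well, with overlap, at -0.37, -0.32, -0.31, -0.25 and -0.22. The partner median moved between 0.06 and 0.35 when single samples were left out, lowest without GPR15+ sample 5 and highest without GPR15+ sample 1.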

How the data were processed

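Gene expression was measured with 1-colour Affymetrix arrays in 6 samples. The authors deposited log2 values per probe set, produced with RMA, which corrects background, equalises the arrays' distributions and summarises probes, per the submitters' processing notes. Per the labels' protocols, 2 to 10 ng of total RNA was labelled. The number of arrays limits the precision. The array's name, annotation build and detection calls are not given in the sources used here. Of 22142 rows, 19527 had 1 gene symbol, 0 several and 2615 none; 33 genes had more than 1 row, of which the highest mean was kept, leaving 19494 genes. Gene identifiers were matched to the RefSeq gene table (GRCm38.p6), and 0 symbols were updated.

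Differences, GPR15+ minus GPR15-, were fitted over all genes with limma 3.58.1 (lmFit, eBayes, no block) in R 4.3.3, with Benjamini-Hochberg adjustment and a threshold of 0.05; the fit was tested on simulated data. Genes of equal mean level are those in the same bin of 0.5 log2 units. The members and lists were chosen with earlier results of these data known. Named are, in each direction, the 10 members with the largest difference among those whose arrays do not overlap (made up to 10 by unadjusted p, as for 2 lower members), the 5 brightest, the 3 on each side of the level of 7, the 5 with the largest SD between title numbers, up to 15 of a list of known roles and up to 6 KRAB partners by unadjusted p. Trim28, Setdb1, Sumo2, Hdac1, Pphln1, Smarcad1, Dnmt3a, Hdac2 and the members named for their run, for their promoter or for the threshold were named outside that rule, after their values were seen. The marker lists covered T cells, Tregs, CD8 T and NK cells, B and plasma cells, macrophages, epithelial and stromal cells. The CD8 T and NK list had a median level of 6.07 and a median difference of -0.10, and the 3 measured stromal markers 8.27 and -0.01. A split of members by protein features was not used here.

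Whether equal title numbers pair the samples was checked from each sample's deviations from its group mean. They correlated at 0.567 for number 1, 0.381 for 5 and 0.319 for 6, each over 0.1, and the numbers were used as pairs. Unequal numbers passed 0.1 too: GPR15- 5 with GPR15+ 6 at 0.213, and GPR15- 6 with GPR15+ 5 at 0.315. The check thus set number 1 apart, but it cannot decide whether 5 pairs with 5 or with 6. The alternatives were other scalings, filters, weights, the block, other level thresholds and each sample left out.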

Additional observations from a re-analysis of the deposited data

How the results depend on the processing

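The median difference of the members stayed above 0 in every setting run, at 0.15 after centring each array and 0.059 to 0.157 with single samples left out; less that of genes of equal level, it was 0.12 with members at 6.5 or more and 0.041 to 0.101 with single samples left out. Counts depended more on the setting. Passing members and genes numbered 22 and 2174 with array weights, 0 and 2 with gene-by-gene weights, and 0 and 0 with any single sample left out. Members higher without adjustment (12) became 21 after centring, 30 with the replicate block, 47 and 35 with the 2 kinds of weights, 38 without both arrays numbered 1, 6 at a mean of 7.5 or more, and 7 (without GPR15+ sample 6) to 31 (without GPR15+ sample 1) with 1 sample left out. Members lower (2) became 1 after centring, quantile normalization, removal of the intensity trend or limma with a trend, 6 with the block, 23 and 12 with weights, 9 without the arrays numbered 1, 5 at a mean of 6.5 or more, and 0 (without GPR15- sample 1) to 12 (without GPR15+ sample 1). The block for the paired numbers moved the higher partner genes from 3 to 5 and all genes at an unadjusted p under 0.05 from 544 higher and 670 lower to 1197 and 1214; no adjusted call changed. Members without overlap (11 higher, 8 lower) became 23 and 4 after centring and 19 and 5 with the trend removed, where the share of all genes is not given. All genes at an unadjusted p under 0.05 split into 544 higher and 670 lower, but 777 and 397 after centring. They split into 2505 and 4029 with array weights and 1708 and 2634 with gene-by-gene weights. Without both arrays numbered 1 the split was 1870 and 2231, and without GPR15+ sample 1 it was 1860 and 2491. The partner median (0.15) was 0.22 after centring, 0.083 after quantile normalization, 0.32 and 0.28 with weights, 0.22 without the arrays numbered 1 and 0.062 to 0.35 with 1 sample left out.

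The gene-by-gene weights, the run and letter medians and the rescaled counts without overlap were chosen after seeing the data. Over 59 named genes, 867 of 943 values kept their direction and side of the threshold and 56 changed sign, in 15 genes, of which none passed the adjusted test in the fit without a block. Centring gave Zfp62 0.0095, Zfp541 0.017 and Zfp638 0.047. Quantile normalization gave Zfp541 0.0036, Zfp825 -0.19, Zfp706 -0.096, Zfp263 -0.12 and Zfp644 -0.077. Removing the intensity trend gave Zfp541 0.027, Zfp825 -0.054, Zfp706 -0.028, Zfp263 -0.071 and Zfp644 -0.034. Array weights gave Zfp62 0.0235, Zfp58 -0.46, Zfp263 -0.0245, Zfp335 -0.046, Zfp644 -0.0002 and Zfp346 -0.020. Gene-by-gene weights gave Zfp62 0.016, Zfp777 -0.0031, Zfp58 -0.34, Zfp638 0.020 and Zfp335 -0.0068. Without the arrays numbered 1, Zfp62 was at 0.061, Zfp777 at -0.0045, Zfp58 at -0.36, Zfp638 at 0.11, Zfp335 at -0.070 and Zfp346 at -0.0057. With single samples left out, the ranges were -0.12 to 0.021 for Zfp62, -0.097 to 0.67 for Zfp207, -0.13 to 0.19 for Zfp777, -0.24 to 0.25 for Zfp58, -0.20 to 0.048 for Zfp541, -0.44 to 0.77 for Zfp825, -0.16 to 0.43 for Zfp706, -0.20 to 0.16 for Zfp638, -0.0415 to 0.12 for Zfp263, -0.070 to 0.12 for Zfp644, -0.075 to 0.55 for Zfp346, -0.29 to 0.12 for Zfp106, -0.10 to 0.38 for Zfp622 and -0.093 to 0.58 for Zfp292. The cause was not tested.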
